A study of Homo sapiens with 6 samples.

Results

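Tropomyosins, caldesmon and a set of broadly expressed actin-binding genes were followed in human WA09 cells from the undifferentiated state to smooth muscle cells. The set holds 10 listed genes: the tropomyosins TPM1, TPM2, TPM3 and TPM4, caldesmon (CALD1), the calponins CNN2 and CNN3, the myosin light chain MYL9, vinculin (VCL) and CSRP1. Each gene was represented by the probe set that carries its symbol alone in the platform annotation, and where there were several, by the one with the highest mean over the 6 arrays. TPM3 had no such probe set and was not measured here, so 9 of the 10 genes were measured, among 18417 genes in all. WA09 is an established human embryonic stem cell line. The 3 groups, each of 2 arrays, were undifferentiated cells kept in StemPro medium (hESC), ISL1-positive nascent mesoderm after 4 days in that kind of medium supplemented with 25 ng/ml of Wnt3a and 50 ng/ml of BMP4 (INM), and, after 21 days with both factors, smooth muscle cells (SMC). All 3 groups derive from this line alone. The labels do not say whether replicates were separate cultures, so the p-values reflect the spread between these arrays, which may be technical.

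Tropomyosins are rod-shaped dimers that lie end to end along actin filaments and decide which other proteins reach the filament. In smooth muscle, caldesmon and calponin bind the tropomyosin-coated filament and restrain myosin, and phosphorylation of the regulatory light chain switches myosin on. Vinculin ties the filaments to integrin adhesions. Unlike the contractile markers of differentiated smooth muscle, these genes are active in most adherent cells, including fibroblasts and stem cells, and several of them are targets of serum response factor (SRF), which binds a DNA element called the CArG box. Tropomyosin, caldesmon and vinculin genes also make muscle and non-muscle isoforms by alternative promoters or splicing, which a single signal per gene does not separate.

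The 250 bases before annotated starts of 4 of the genes are shown as examples, with a short element of each in capitals (RefSeq, GRCh38.p14, plus strand, 5′ to 3′). Capitals mark a CArG box in TPM4 and CNN2. In CALD1 and VCL they mark the letters CATTCC read on the opposite strand, 194 bases before the start in CALD1 and 171 in VCL. CATTCC is the core of the M-CAT element, which TEAD factors bind.
TPM4 chr19:16067288-16067537: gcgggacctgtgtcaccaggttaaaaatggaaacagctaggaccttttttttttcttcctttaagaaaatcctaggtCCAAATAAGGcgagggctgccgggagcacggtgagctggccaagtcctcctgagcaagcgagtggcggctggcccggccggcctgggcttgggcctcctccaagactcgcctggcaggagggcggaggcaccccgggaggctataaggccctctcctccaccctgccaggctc
CNN2 chr19:1026358-1026607: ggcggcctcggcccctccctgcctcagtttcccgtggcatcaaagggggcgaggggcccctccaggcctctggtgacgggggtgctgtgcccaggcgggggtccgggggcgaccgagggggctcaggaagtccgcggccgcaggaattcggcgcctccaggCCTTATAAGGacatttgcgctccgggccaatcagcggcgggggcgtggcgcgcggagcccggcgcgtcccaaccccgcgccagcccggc
CALD1 chr7:134779384-134779633: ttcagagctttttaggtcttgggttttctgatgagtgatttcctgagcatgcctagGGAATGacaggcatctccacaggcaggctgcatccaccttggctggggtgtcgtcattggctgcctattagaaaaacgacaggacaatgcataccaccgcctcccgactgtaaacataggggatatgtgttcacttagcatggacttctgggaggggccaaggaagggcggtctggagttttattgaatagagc
VCL chr10:73997866-73998115: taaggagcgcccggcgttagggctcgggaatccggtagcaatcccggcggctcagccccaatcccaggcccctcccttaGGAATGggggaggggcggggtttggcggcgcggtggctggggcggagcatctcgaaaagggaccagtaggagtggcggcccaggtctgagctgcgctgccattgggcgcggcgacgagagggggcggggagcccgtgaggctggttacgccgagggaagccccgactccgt

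Of the 10 genes, 9 had windows in the RefSeq promoter table, 19 windows of 300 bases in all, from 250 bases before to 50 after a start. MYL9 had no entry. A CArG box (the consensus element, read on both strands) lay in 2 of these windows, one of 3 windows of TPM4, beginning 173 bases before the start, and the only window of CNN2, beginning 89 bases before it. Across all 35116 windows of the table, 1.29% held a CArG box. The letters CATTCC, on either strand, lay in 5 windows of 4 genes (CALD1, CNN3, CSRP1 and VCL), against 14.0% of all windows. TGANTCA, a pattern that covers AP-1 sites, lay in 1 window, of CALD1, against 7.71% of all windows, and no match overlapped another. These matches are letters in a window and do not show binding. The 2 genes with a CArG box in a window had different values: TPM4 rose in INM and SMC by the probe set used, and CNN2 was called in no comparison of the deposited values. Which TPM4 start gave its signal was not tested.

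The deposited table gives expression as RMA signals on the log2 scale. All 18417 genes were fitted together with limma, and calls needed a Benjamini-Hochberg adjusted p under 0.05. A log2 change is the mean of the 2 arrays of one group minus that of another, given with its standard error (SE). All 54 values of the 9 genes, which ran from 7.99 to 11.77, lay above the median of unnamed probe sets on their array. The groups matched their labels in part. SOX2, a factor of the pluripotent state, stood at 11.44 and 11.47 on the hESC arrays, 5.63 and 5.81 on the INM arrays, and 5.76 and 5.61 on the SMC arrays. ISL1 peaked in INM at 9.46 and 9.55, against 5.54 and 5.28 in hESC. ACTA2, smooth muscle alpha-actin, stood at 13.09 and 13.03 in SMC, but MYH11, which encodes the myosin heavy chain of mature smooth muscle, was at 5.59 and 5.43 in SMC and 5.77 and 5.51 in hESC (adjusted p = 0.507), close to the unnamed probe sets. The pooled replicate SD over all genes was 0.149 in hESC, 0.313 in INM and 0.132 in SMC. Leave-one-out fits each omit 1 of the 6 arrays, and the lone array left in a group is then taken to vary like the others. Centring each array on its median moved the median change of all genes from -0.03 to 0.16 in INM versus hESC and from -0.05 to 0.08 in SMC versus hESC, and raised the share of calls that were rises from 56.1% to 76.2% and from 52.9% to 66.5%. Quantile normalization gave 66.1% and 58.3%.

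TPM1, which makes muscle and non-muscle tropomyosins, was called higher in INM, where its mean was highest. Its signal (probe set 7984079) was 10.46 and 10.47 on the hESC arrays, 11.77 and 11.17 on the INM arrays, and 11.05 and 11.00 on the SMC arrays. The groups did not overlap, with SMC between the other two. In bulk RNA, fewer cells of a type and less RNA per cell cannot be told apart, here and in the results that follow. In INM it was 2.01-fold over hESC, a log2 change of 1.01 (SE 0.20, adjusted p = 0.00945). In SMC the change from hESC was 0.56 (SE 0.20, adjusted p = 0.0652), and from INM it was -0.45 (SE 0.20, adjusted p = 0.159), neither of them called. The spread of the INM arrays entered these tests. With SMC and hESC fitted alone the change of 0.56 had an adjusted p of 0.00227, and without INM replicate 2 SMC was called lower than INM, at -0.75 (adjusted p = 0.00331), whereas without INM replicate 1 that change was -0.15 (adjusted p = 0.388). The day 4 rise lost its call without hESC replicate 1 (adjusted p = 0.0672) or hESC replicate 2 (adjusted p = 0.0605), with almost the same size.

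TPM2, the beta-tropomyosin of muscle, rose at each step and was the only measured gene of the set called between day 4 and day 21. Probe set 8161044 read 9.70 and 9.58 on the hESC arrays, 10.27 and 10.15 on the INM arrays, and 11.34 and 11.32 on the SMC arrays. The 3 groups did not overlap and followed the order of the stages. The log2 change was 0.57 in INM versus hESC (SE 0.11, adjusted p = 0.0107), 1.12 in SMC versus INM (SE 0.11, adjusted p = 0.00139) and 1.69 in SMC versus hESC (SE 0.11, adjusted p = 1.15e-04), a ratio of 3.22. The rise after day 4 kept its call in all 6 leave-one-out fits, between 1.06 and 1.17. The first rise lost its call without hESC replicate 2, at 0.51 (adjusted p = 0.0721).

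TPM4, whose main product is a short non-muscle tropomyosin, rose by day 4 and had nearly the same mean at day 21. Its signal (probe set 8180349) was 10.06 and 10.31 on the hESC arrays, 11.51 and 11.36 on the INM arrays, and 11.56 and 11.31 on the SMC arrays. Both later groups lay above hESC and overlapped each other. The log2 change was 1.25 in INM versus hESC (SE 0.15, adjusted p = 0.0015) and 1.25 in SMC versus hESC (SE 0.15, adjusted p = 0.00105), and SMC minus INM was -0.0035 with a 95% interval from -0.36 to 0.35. A second probe set of TPM4 (8026513) read 9.33 and 9.55 on the hESC arrays, 9.86 and 9.81 on the INM arrays, and 10.01 and 9.90 on the SMC arrays. When all 19460 single-symbol probe sets were tested, its changes were smaller, at 0.39 in INM versus hESC (SE 0.13, adjusted p = 0.0525) and 0.51 in SMC versus hESC (SE 0.13, adjusted p = 0.0193). With both probe sets averaged the change in INM versus hESC was 0.82. The difference between the probe sets was not tested.

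**Figure D1:**
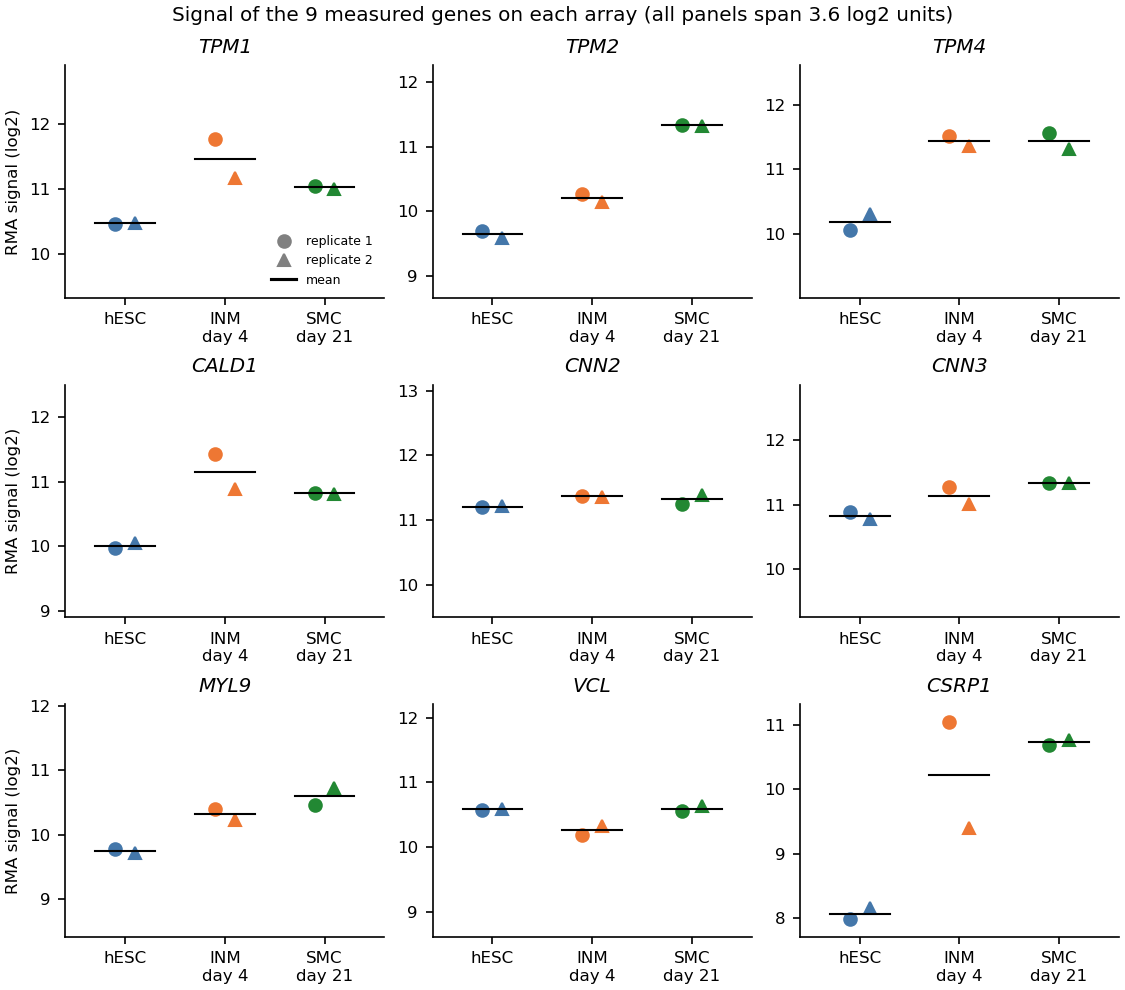
Signal on each array (RMA, log2, vertical axis) of the 9 measured genes in hESC, INM (day 4) and SMC (day 21), with circles for replicate 1, triangles for replicate 2 and a bar for the mean of the 2 arrays; every panel spans the same range. The group means of TPM2 are 9.64, 10.21 and 11.33 in stage order, CNN2 and VCL lie within narrow bands, and the INM arrays of CSRP1 stand at 11.04 and 9.40.

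CALD1, caldesmon, was called higher than hESC in both later groups, with its highest mean at day 4. Probe set 8136347 read 9.97 and 10.05 on the hESC arrays, 11.43 and 10.88 on the INM arrays, and 10.83 and 10.81 on the SMC arrays. Every later array lay above hESC, and SMC lay just under the lower INM array. The log2 change was 1.14 in INM versus hESC (SE 0.19, adjusted p = 0.00502), a ratio of 2.21, and 0.81 in SMC versus hESC (SE 0.19, adjusted p = 0.0152). SMC versus INM was not called, at -0.33 (SE 0.19, adjusted p = 0.263), but without INM replicate 2 it was called lower, at -0.61 (adjusted p = 0.00876), and without INM replicate 1 it was -0.06 (adjusted p = 0.77). The call in SMC versus hESC ended when any one hESC or SMC array was left out, with changes between 0.77 and 0.85. The spread of the INM arrays entered that test. With SMC and hESC fitted alone the change of 0.81 had an adjusted p of 3.51e-04.

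Of the broadly expressed calponins, CNN3 was called in 1 comparison and CNN2 in none. CNN2 (probe set 8024111) read 11.20 and 11.21 on the hESC arrays, 11.37 and 11.36 on the INM arrays, and 11.25 and 11.39 on the SMC arrays, with the later groups overlapping each other. Its 95% intervals ran from -0.11 to 0.43 in INM versus hESC and from -0.15 to 0.38 in SMC versus hESC. With each array centred on its median, INM versus hESC was called, at 0.35 (adjusted p = 0.049). CNN3, the acidic calponin of non-muscle cells (probe set 7917885), read 10.88 and 10.77 on the hESC arrays, 11.27 and 11.01 on the INM arrays, and 11.33 and 11.34 on the SMC arrays. The groups did not overlap, and the change was 0.51 in SMC versus hESC (SE 0.13, adjusted p = 0.0231), a ratio of 1.42. INM versus hESC missed the threshold, at 0.31 (SE 0.13, adjusted p = 0.116), but passed without INM replicate 2, at 0.44 (adjusted p = 0.0256), and with median centring, at 0.50 (adjusted p = 0.022). Without INM replicate 1 it was 0.18 (adjusted p = 0.287). The SMC call of CNN3 ended when any one hESC or SMC array was left out, at 0.45 to 0.56. With SMC and hESC fitted alone the change of 0.51 had an adjusted p of 0.00431. CNN1, the smooth muscle calponin, which is not among the listed genes, changed by 1.48 (SE 0.16) in INM and 1.94 (SE 0.16) in SMC from hESC; whether the calponins differ from each other was not tested.

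MYL9, a regulatory light chain of smooth muscle and non-muscle myosin, was called higher in both later groups than in hESC. Its signal (probe set 8062312) was 9.78 and 9.71 on the hESC arrays, 10.40 and 10.23 on the INM arrays, and 10.46 and 10.73 on the SMC arrays, with no overlap and in the order of the stages. The log2 change was 0.57 in INM versus hESC (SE 0.14, adjusted p = 0.0211) and 0.85 in SMC versus hESC (SE 0.14, adjusted p = 0.00372), a ratio of 1.81. SMC versus INM was not called, at 0.28 (SE 0.14, adjusted p = 0.20). The SMC call was kept in all 6 leave-one-out fits, between 0.72 and 0.99. The INM call ended without hESC replicate 1, at 0.60 (adjusted p = 0.0911), or hESC replicate 2, at 0.54 (adjusted p = 0.108).

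VCL, vinculin, was the only measured gene of the set with a lower mean in INM than in hESC. Probe set 7928444 read 10.58 and 10.59 on the hESC arrays, 10.19 and 10.33 on the INM arrays, and 10.56 and 10.63 on the SMC arrays. Both INM arrays lay below all 4 others, and SMC and hESC overlapped. The changes were -0.33 in INM versus hESC (SE 0.11, adjusted p = 0.068), 0.34 in SMC versus INM (SE 0.11, adjusted p = 0.0803) and 0.02 in SMC versus hESC (95% interval -0.26 to 0.29), none of them called. The lower INM mean was called with quantile normalization, at -0.39 (adjusted p = 0.0352), with an intensity trend in the variance, at -0.33 (adjusted p = 0.0437), and without INM replicate 2, at -0.40 (adjusted p = 0.0333). It was smaller with median centring, at -0.14 (adjusted p = 0.403), and without INM replicate 1, at -0.25 (adjusted p = 0.133). The higher SMC mean relative to INM was called with quantile normalization, at 0.39 (adjusted p = 0.0491), and without INM replicate 2, at 0.41 (adjusted p = 0.0409), and was 0.29 with median centring (adjusted p = 0.135) and 0.27 without INM replicate 1 (adjusted p = 0.133).

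CSRP1, a LIM protein that binds alpha-actinin and zyxin, had the largest change of the 9 genes and the widest spread. Its signal (probe set 7923378) was 7.99 and 8.16 on the hESC arrays, 11.04 and 9.40 on the INM arrays, and 10.69 and 10.76 on the SMC arrays. All later arrays lay above hESC, and the INM arrays lay on either side of SMC. The log2 change was 2.15 in INM versus hESC (SE 0.47, adjusted p = 0.0144), a ratio of 4.43, and 2.65 in SMC versus hESC (SE 0.47, adjusted p = 0.0052), a ratio of 6.29. The INM change was 1.33 without INM replicate 1 and 2.97 without INM replicate 2, both called. SMC versus INM was not called, at 0.51 (SE 0.47, 95% interval -0.61 to 1.63), and its sign rested on 1 array: it was 1.32 without INM replicate 1 (adjusted p = 2.71e-04) and -0.31 without INM replicate 2 (adjusted p = 0.127). The INM call ended without hESC replicate 1, at 2.06 (adjusted p = 0.0955), or hESC replicate 2, at 2.23 (adjusted p = 0.0735), while the SMC call was kept in all 6 leave-one-out fits. Among all genes, 1.76% had a larger change than CSRP1 in INM versus hESC and 1.64% in SMC versus hESC.

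**Figure D2:**
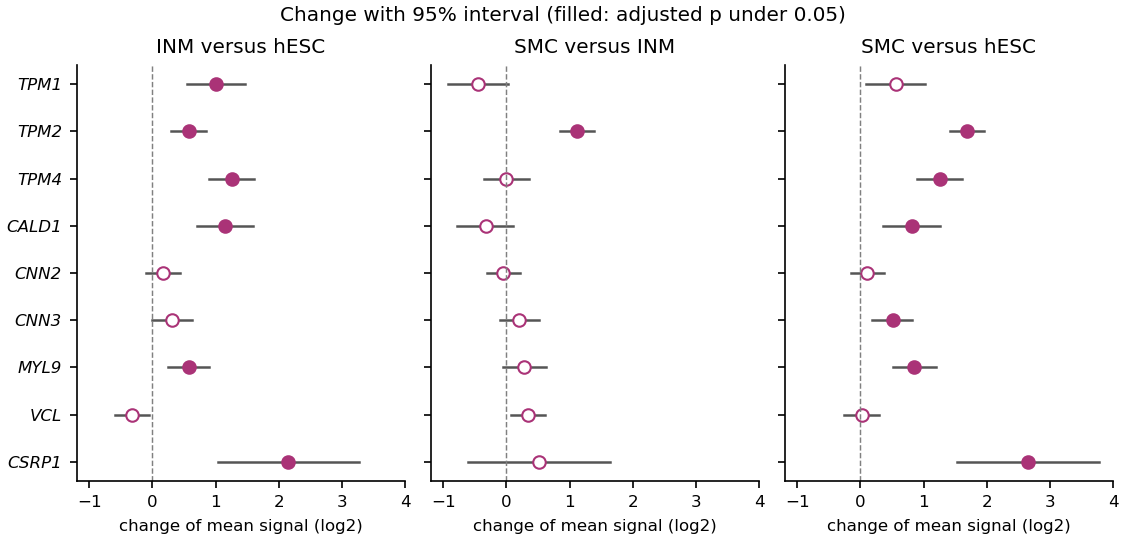
Change of mean log2 signal (horizontal axis) with its 95% interval for the 9 measured genes in INM versus hESC, SMC versus INM and SMC versus hESC; filled points have an adjusted p under 0.05. In the middle panel only TPM2, at 1.12, is filled, while 6 genes are filled in each of the others.

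Set side by side, the comparison of INM with hESC called 6 of the 9 measured genes higher and 0 lower, with a median change of 0.57. Of all genes tested, 33.8% were called there, 18.9% as rises and 14.8% as falls, and the median change was -0.03. At an unadjusted limma p under 0.05, VCL was the 1 gene of the set with a lower mean. The 6 were TPM1, TPM2, TPM4, CALD1, MYL9 and CSRP1. SMC versus INM called 1 of 9 higher (TPM2) and 0 lower, with a median of 0.20, where 21.0% of all genes were called, 9.94% as rises and 11.1% as falls. At an unadjusted limma p under 0.05, 2 were higher (TPM2 and VCL) and 0 lower. SMC versus hESC called 6 of 9 higher (TPM2, TPM4, CALD1, CNN3, MYL9 and CSRP1) and 0 lower, with a median of 0.81, where 37.2% of all genes were called, 19.7% as rises and 17.6% as falls, and the median was -0.05. At an unadjusted limma p under 0.05, 7 were higher (with TPM1 added) and 0 lower. The comparisons share arrays, so these counts are not independent of each other. Without hESC replicate 1 the first count was 3, without hESC replicate 2 it was 2, and both fits kept TPM4 and CALD1. Without INM replicate 2 the second count was 4 (TPM2 and VCL higher, TPM1 and CALD1 lower), and without INM replicate 1 it was 2 (TPM2 and CSRP1 higher). In the third comparison 4 calls (TPM2, TPM4, MYL9 and CSRP1) were kept in all 6 leave-one-out fits.

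The sizes of the 2 steps were compared directly as the change from INM to SMC minus the change from hESC to INM. Of the 9 genes 3 were called, all with the lower change in the second step: TPM1, TPM4 and CALD1 had differences of -1.45 (SE 0.34, adjusted p = 0.0248), -1.26 (SE 0.26, adjusted p = 0.0164) and -1.48 (SE 0.32, adjusted p = 0.0209). The TPM4 call held for 1 probe set only. Its second probe set, tested among all single-symbol probe sets, had a difference of -0.27 (adjusted p = 0.402) and was not called. For TPM2 the difference was 0.55 (SE 0.20, adjusted p = 0.0941) and for VCL 0.67 (SE 0.20, adjusted p = 0.0514), neither of them called. For CSRP1 it was -1.64 (SE 0.81, adjusted p = 0.19), also not called. This contrast called 24.2% of all genes, 13.8% with a negative difference and 10.3% with a positive one. The sizes and the calls both moved with single arrays. Without INM replicate 1 the difference was -0.86 for TPM1, -0.92 for CALD1 and -0.0042 for CSRP1, and without INM replicate 2 it was -2.05 for TPM1, -2.03 for CALD1 and -3.28 for CSRP1. Without hESC replicate 1 or SMC replicate 2 the count was 0, without hESC replicate 2 or SMC replicate 1 it was 1 (TPM4), and without INM replicate 2 it was 5, which added CSRP1 and VCL.

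**Figure D3:**
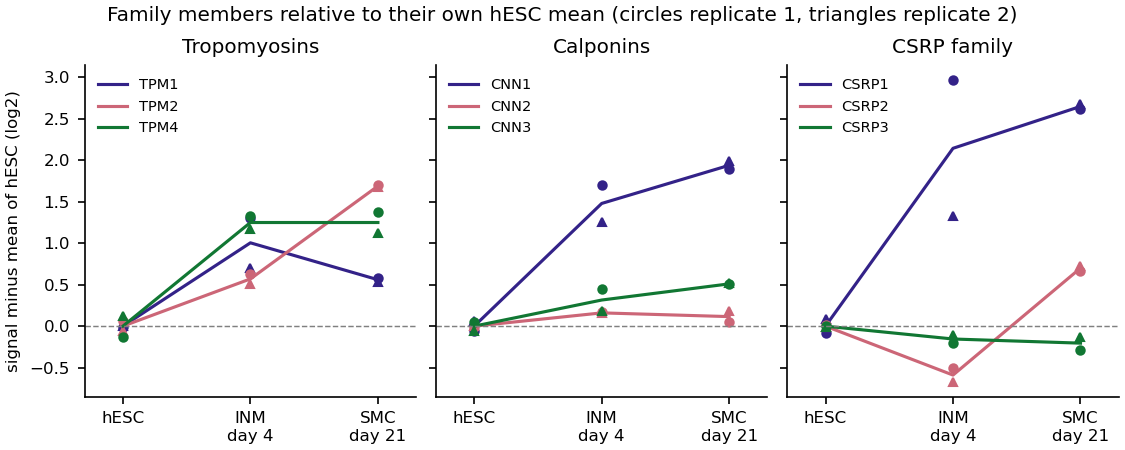
Signal minus the gene's own hESC mean (log2, vertical axis) for the tropomyosins, the calponins and the CSRP family in hESC, INM and SMC; lines join group means, circles are replicate 1 and triangles replicate 2. TPM4 stands at 1.25 in both later groups while TPM2 reaches 1.69, CNN1 reaches 1.94 against 0.11 for CNN2, and CSRP2 is below its hESC mean in INM and above it in SMC.

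CSRP1 has relatives in muscle. CSRP2, its smooth muscle relative, read 9.57 and 9.55 on the hESC arrays, 9.05 and 8.89 on the INM arrays, and 10.23 and 10.29 on the SMC arrays. It fell by 0.59 in INM versus hESC (SE 0.11, adjusted p = 0.00945) and rose by 1.29 in SMC versus INM (SE 0.11, adjusted p = 8.32e-04). CSRP3, the striated muscle member, was not called, at -0.16 in INM (SE 0.12) and -0.21 in SMC (SE 0.12) from hESC. The fall of CSRP2 lost its call without hESC replicate 1, at -0.58 (adjusted p = 0.0648), or hESC replicate 2, at -0.60 (adjusted p = 0.0552).

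In INM most of the genes were higher in the same array. Replicate 1 was the higher in 8 of 9, all but VCL, with a median difference of 0.18, and 3 genes differed by over 0.5: CSRP1 by 1.64, TPM1 by 0.59 and CALD1 by 0.55. Over all genes replicate 1 of INM was the higher in 48.7%, with a median difference of -0.01, and 15.2% differed by over 0.5. The hESC and SMC arrays differed by over 0.5 in 0 of the 9 genes. Of the 109 other actin network genes, 63 were higher in replicate 1, with a median difference of 0.08. Replicate 1 was also the higher in 6 of 6 actins, 15 of 19 focal adhesion partners of vinculin and 12 of 14 LIM relatives of CSRP1. Replicate 2 was the higher in 8 of 10 genes of myosin light chain control and 8 of 13 splicing regulators. The 8 smooth muscle contractile genes were divided, with 3 higher in replicate 1 (TAGLN, TAGLN2 and CNN1) and 5 in replicate 2 (SMTN, DES, MYH11, TAGLN3 and LMOD1).

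**Figure D4:**
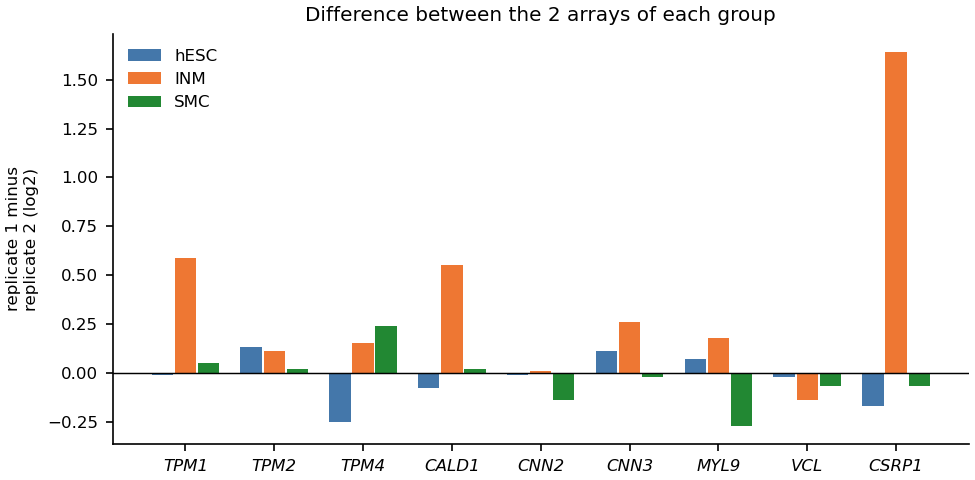
Signal of replicate 1 minus replicate 2 (log2, vertical axis) for each measured gene within hESC, INM and SMC. The INM bars of CSRP1 (1.64), TPM1 (0.59) and CALD1 (0.55) are the tallest, and VCL is the only gene whose INM bar lies below 0.

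Other genes of the actin network were counted in lists that leave out the 10 genes. Of 119 listed genes 109 were measured. By day 4, 60 rose and 8 fell relative to hESC, with a median change of 0.63, against rises in 18.9% and falls in 14.8% of all genes. In SMC versus INM 12 rose and 22 fell, with a median of -0.07. That is 11.0% rises, near the 9.94% of all genes, and 20.2% falls against 11.1%. In SMC versus hESC 53 rose and 11 fell, with a median of 0.43, or 48.6% rises and 10.1% falls against 19.7% and 17.6% of all genes. In the lists with 0 falls in INM versus hESC or SMC versus hESC, the only gene with a lower mean at an unadjusted limma p under 0.05 was PPP1R12B, at -0.41 in INM, named after its value was seen. Of the 60 rises at day 4, 33 kept their call in all 6 leave-one-out fits, and of the 53 rises in SMC versus hESC 32 did. Of the 12 rises and 22 falls after day 4 only 5 and 3 did. The day 4 total of 68 calls was 36 without hESC replicate 1 and 43 without hESC replicate 2, and the total of 34 calls after day 4 was 53 without INM replicate 1, 11 without SMC replicate 1 and 8 without SMC replicate 2. The total of 64 in SMC versus hESC was 42 without SMC replicate 2.

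Among the actins, the filament protein itself, each muscle form was called in 1 or more comparisons and the cytoplasmic forms in none. ACTB stood at 0.09 (SE 0.11, adjusted p = 0.542) in SMC versus hESC. ACTG1 was near the threshold, at 0.33 (SE 0.11, adjusted p = 0.0549) in SMC and 0.32 (SE 0.11, adjusted p = 0.0664) in INM from hESC. ACTG1 was higher in both at an unadjusted limma p under 0.05. In INM versus hESC 2 of 6 rose, ACTA2 by 4.99 and the cardiac form ACTC1 by 2.52, and 1 fell, the enteric form ACTG2, at -1.33, a call not kept in all 6 leave-one-out fits. In SMC versus INM ACTG2 rose by 3.91 and ACTA2 by 1.65, while ACTC1 fell by 2.91 and the skeletal form ACTA1 fell by 1.22. Of these calls after day 4, those of ACTG2 and ACTC1 were kept in all 6 leave-one-out fits. Actin genes are alike in sequence, so their own levels are uncertain.

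Most of vinculin's partners at focal adhesions were called higher than hESC in both later groups. Of 19 measured genes 13 rose in INM versus hESC and 0 fell, with a median of 1.03, and 11 rose and 0 fell in SMC versus hESC, with a median of 0.74. PARVA, an adaptor in the integrin-linked kinase complex, rose by 2.66 (SE 0.11) in SMC versus hESC, TNS1, a tensin, by 2.50 (SE 0.17) and TGFB1I1, the paxillin relative Hic-5, by 2.35 (SE 0.22). Talin 1 (TLN1), which recruits vinculin, read 8.48 and 8.63 on the hESC arrays, 10.37 and 10.14 on the INM arrays, and 10.33 and 10.43 on the SMC arrays. It rose by 1.83 in SMC versus hESC (SE 0.13). After day 4, 2 genes rose (PARVB at 0.77 and TNS1 at 0.91) and 4 fell (TLN2 at -1.55, TES at -1.16, TNS3 at -0.91 and PTK2 at -0.79), of which TLN2 kept its call in all 6 leave-one-out fits. TLN1 is named here after its values were seen.

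Genes of filament turnover were mostly called higher in both later groups. Of 13 measured genes 8 rose and 0 fell in INM versus hESC, with a median of 0.68, and 10 rose and 0 fell in SMC versus hESC, with a median of 0.64. The severing protein gelsolin (GSN) rose by 2.59 (SE 0.22) in SMC versus hESC, the muscle cofilin CFL2 by 1.90 (SE 0.17) and supervillin (SVIL) by 1.71 (SE 0.11). SVIL was the 1 gene of the list called after day 4, at 0.54, a call not kept in all 6 leave-one-out fits. Among crosslinkers 8 of 11 rose and 1 fell (PLS1, at -0.95) in INM versus hESC, with a median of 0.94. Of the 8 rises 5 kept their call in all 6 leave-one-out fits, and the fall of PLS1 did not. After day 4, 1 rose (SYNPO, at 1.62) and 5 fell (LCP1 at -4.91, PLS1 at -1.45, SYNPO2 at -1.08, ACTN4 at -0.72 and FSCN1 at -0.69), with a median of -0.40. Of these calls after day 4 only that of LCP1 was kept in all 6 leave-one-out fits. In SMC versus hESC 5 rose, with palladin (PALLD) at 3.12, SYNPO at 2.32, ACTN1 at 0.99, LASP1 at 0.90 and FSCN1 at 0.88, and 2 fell, PLS1 at -2.40 and LCP1 at -2.07. Of these calls only that of LASP1 was not kept in all 6 leave-one-out fits.

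MYL9 works within myosin complexes. Of 7 non-muscle myosin genes 5 rose in INM versus hESC (MYH9 at 1.73, MYL6 at 0.63, MYL12A at 0.52, MYH10 at 0.47 and MYL6B at 0.39) and 0 fell, with a median of 0.47. In SMC versus hESC 2 rose, the heavy chain MYH9 at 1.45 (SE 0.16) and the essential light chain MYL6 at 0.64 (SE 0.12), with a median of 0.11, and in SMC versus INM MYL12A fell by 0.43. MYL12A and MYL12B are near-identical genes, and their own levels are uncertain. In the list of genes that control light chain phosphorylation, 7 of 10 rose in INM versus hESC and 0 fell, with a median of 0.62. In SMC versus INM 3 fell (ROCK1 at -0.72, PPP1CB at -0.64 and ROCK2 at -0.54), and in SMC versus hESC 2 rose, the light chain kinase MYLK at 0.87 (SE 0.14) and the phosphatase inhibitor PPP1R14A at 0.51 (SE 0.15). Of the 5 and 7 rises at day 4, 1 and 2 kept their call in all 6 leave-one-out fits. The falls of MYL12A, ROCK1, PPP1CB and ROCK2 after day 4 did not. Nor did the rises of MYL6 and PPP1R14A in SMC versus hESC.

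Tropomodulins cap filaments that carry tropomyosin. Of 5 measured genes in that list 3 rose in INM versus hESC and 0 fell, with a median of 0.99. TMOD1 rose by 2.18 at day 4 and fell by 2.32 after it, on INM arrays of 8.01 and 9.62 that stand far apart, and neither call was kept in all 6 leave-one-out fits. TMOD2 rose at both steps, by 1.12 and 1.03. TMOD3 rose by 0.99 at day 4 and by 0.56 in SMC versus hESC, the latter a call not kept in all 6 leave-one-out fits. In the smooth muscle contractile list 3 of 8 rose in INM versus hESC (CNN1 at 1.48, TAGLN2 at 1.38 and SMTN at 1.03) and 1 fell (TAGLN3, at -0.41), with a median of 0.40. After day 4, 2 rose (LMOD1 at 1.34 and DES at 0.68). In SMC versus hESC 5 rose, with CNN1 at 1.94, TAGLN at 1.58, TAGLN2 at 1.12, SMTN at 1.0 and LMOD1 at 1.0, and TAGLN3 fell by 0.42. Not kept in all 6 leave-one-out fits were the calls of TAGLN, TAGLN2, SMTN and TAGLN3 in SMC versus hESC. The same held for SMTN and TAGLN3 in INM versus hESC and for DES after day 4.

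LIM proteins share the zinc-binding domain of CSRP1. Of 14 measured relatives 4 rose in INM versus hESC (PDLIM3 at 1.58, FHL3 at 1.27, PDLIM7 at 0.98 and PDLIM4 at 0.94) and 2 fell (CRIP3 at -2.70 and CSRP2), with a median of 0.32. In SMC versus hESC 9 rose and 1 fell, with a median of 0.70. PDLIM3, an alpha-actinin partner, rose by 3.67 (SE 0.38), CRIP2 rose by 1.45 (SE 0.43) and CRIP3 fell by 2.81 (SE 0.11). From day 4 to SMC CSRP2 rose by 1.29 and PDLIM3 by 2.09, the latter a call not kept in all 6 leave-one-out fits. Of the 4 rises at day 4, 0 were kept in all 6 leave-one-out fits, and of the 9 in SMC versus hESC 4 were.

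**Figure D5:**
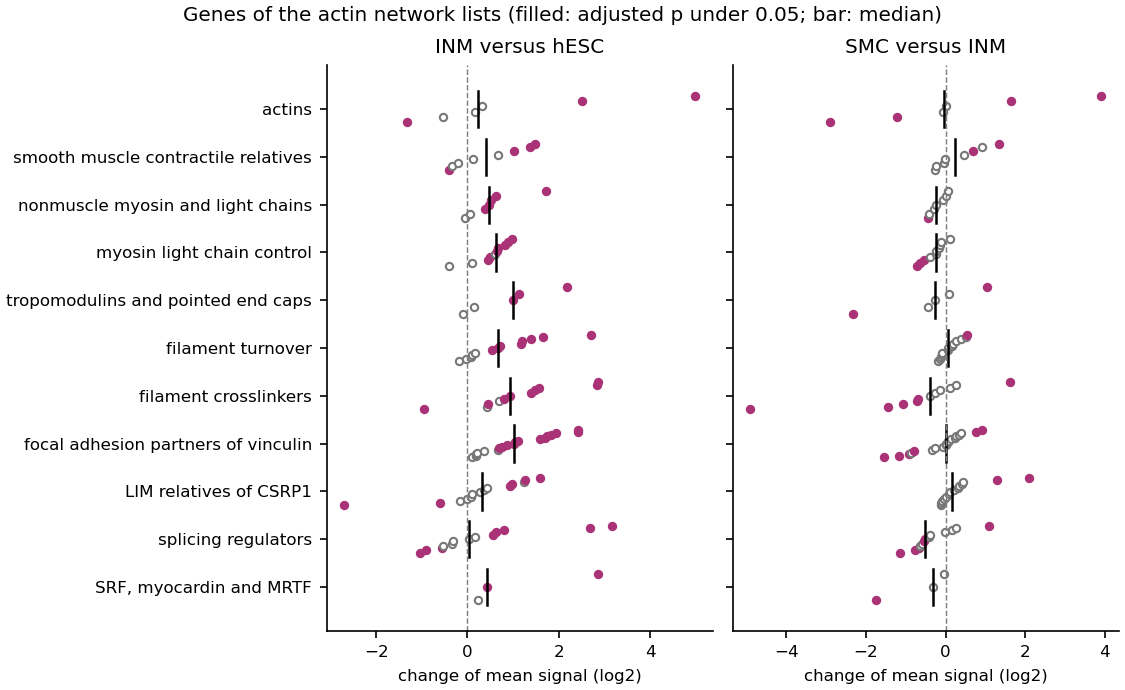
Change of mean log2 signal (horizontal axis) of each measured gene in 11 actin network lists, in INM versus hESC and in SMC versus INM; filled points have an adjusted p under 0.05 and the black bar is the list's median. In INM versus hESC the medians of all lists lie above 0, from 0.03 for splicing regulators to 1.03 for the partners of vinculin, and in SMC versus INM they lie between -0.52 and 0.23.

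Splicing regulators known to act on tropomyosin and related transcripts were called in both directions. Of 13 measured genes 5 rose in INM versus hESC (MBNL2 at 3.17, RBM24 at 2.69, RBFOX2 at 0.80, QKI at 0.63 and MBNL1 at 0.55) and 3 fell (PTBP2 at -1.03, RBPMS2 at -0.90 and CELF2 at -0.56), with a median of 0.03. After day 4 MBNL1 rose by 1.09 and 5 fell (ESRP2 at -1.14, CELF1 at -0.78, PTBP2 at -0.67, RBM24 at -0.53 and PTBP1 at -0.52). In SMC versus hESC 4 rose and 6 fell, with a median of -0.35: MBNL2 rose by 3.15 (SE 0.16), RBM24 by 2.16 (SE 0.13), MBNL1 by 1.63 (SE 0.14) and RBFOX2 by 0.95 (SE 0.11), and PTBP2 fell by 1.70 (SE 0.15). Those 4 rises kept their calls in all 6 leave-one-out fits, and the 5 falls after day 4 did not. Of the factors that act through the CArG box, SRF rose by 0.43 (SE 0.11) in INM versus hESC. It was not called in SMC versus hESC, at 0.12 (SE 0.11). Its smooth muscle coactivator MYOCD rose by 2.85 (SE 0.24) in INM versus hESC, fell by 1.74 (SE 0.24) in SMC versus INM and stood 1.11 (SE 0.24) above hESC in SMC. MRTFB, of the same list, was called in no comparison, at 0.24 (SE 0.12) in INM and 0.21 (SE 0.12) in SMC from hESC. MRTFA was not measured. The rise of SRF and the changes of MYOCD after day 4 and in SMC versus hESC were not kept in all 6 leave-one-out fits.

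Markers of fibroblasts, which also express these genes, changed in all 3 comparisons. All 9 of 9 listed fibroblast markers were called higher in SMC versus hESC, with a median change of 3.96, and in INM versus hESC 6 rose and 1 fell. In SMC versus INM 7 rose and 0 fell, with a median of 1.65. Of the 9 genes of the set 1 was called there, with a median of 0.20, where 21.0% of all genes were called. Rises made up 19.7% of all genes in SMC versus hESC, 18.9% in INM versus hESC and 9.94% in SMC versus INM. The summed signal of the fibroblast markers was 2980 and 3030 on the hESC arrays, 11800 and 8480 on the INM arrays, and 31300 and 30500 on the SMC arrays. Replicate 1 comes first in each group here and in the sums that follow. DCN, LUM and FAP lay below the median of unnamed probe sets on both hESC arrays. No fibroblast marker did so on both INM arrays or on both SMC arrays. The 6 smooth muscle markers summed to 1290 on each hESC array, 6840 and 3820 on the INM arrays, and 12100 on each SMC array, with 5 called higher in SMC versus hESC. The 7 nascent mesoderm markers summed to 1780 and 1770 on the hESC arrays, 7890 and 12800 on the INM arrays, and 7540 and 7630 on the SMC arrays. Of them 6 were called higher in INM versus hESC and 6 in SMC versus hESC. In SMC versus INM 2 of these markers rose and 2 fell, with a median of 1.0. The 7 pluripotent stem cell markers summed to 15000 and 15200 on the hESC arrays, 3400 and 5270 on the INM arrays, and 630 and 591 on the SMC arrays, with 5 called lower in INM versus hESC and 7 in SMC versus hESC. Between the INM arrays, the fibroblast and smooth muscle sums were higher in replicate 1, as were 8 of the 9 genes, and the nascent mesoderm and pluripotent sums were higher in replicate 2. Sums of linear signal weigh strong genes most, and the smooth muscle markers were divided. ACTA2 (11.97 and 10.85), TAGLN and CNN1 were higher in replicate 1, and SMTN (7.95 and 8.61), MYH11 and LMOD1 in replicate 2. The 7 endothelial markers summed to 789 and 804 on the hESC arrays, 632 and 1790 on the INM arrays, and 1450 and 1410 on the SMC arrays, with 3 called higher in SMC versus hESC. Epithelial markers, 6 in all, summed to 7560 and 7470 on the hESC arrays, 16700 and 19800 on the INM arrays, and 7930 and 8470 on the SMC arrays. Cardiomyocyte markers summed to 744 and 714 on the hESC arrays, 583 and 685 on the INM arrays, and 545 and 571 on the SMC arrays. Skeletal muscle markers summed to 1760 and 1700 on the hESC arrays, 1670 and 1060 on the INM arrays, and 768 and 795 on the SMC arrays. The part of these cell types in the changes of the 9 genes was not tested.

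The genes nearest to the median profile of the 9 were found by the distance between centred log2 values over the 6 arrays. They were SMARCA1, TLE5, DCUN1D3, AP2M1 and ZMYND11, at distances of 0.18 to 0.19. SMARCA1, a chromatin remodelling ATPase, read 9.09 and 9.10 on the hESC arrays, 9.87 and 9.69 on the INM arrays, and 9.93 and 9.90 on the SMC arrays. The 9 genes themselves lay between 0.29 (MYL9) and 2.27 (CSRP1) from that profile.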

How the data were processed

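RNA of 6 WA09 samples was measured on Affymetrix arrays, 1 per sample, and grouped by sample title. The authors deposited log2 values for 33297 probe sets, which ran from 1.36 to 14.1. RMA and limma appear in the submitters' processing notes with no version. Genome build and RMA settings: not given in the sources used here. Of the probe sets, 19460 carried 1 symbol, 1754 several and 12083 none; names were updated through a GRCh38.p14 gene table, which matched 19429.

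Deposited values entered one model of 3 group means unchanged (limma 3.58.1, R 4.3.3, functions lmFit and eBayes), with 3 residual and 3.56 prior degrees of freedom. Tests were two-sided, adjusted by Benjamini-Hochberg over 18417 genes, with 95% intervals. The fit was tested on simulated data that gave each gene the same spread in every group. That test does not cover the wider spread of the INM arrays. An exact permutation of 2 against 2 arrays has a smallest two-sided p of 0.333, and precision is limited by the number of arrays.

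The genes, lists and tests were chosen with earlier results of these data known, so counts over them are descriptions. Named genes were the 10 listed, up to 3 called genes per list by their change in SMC versus hESC, those behind a count of 5 or fewer, 7 label checks and the 5 nearest profiles. Alternatives covered scaling, normalization, a low-signal filter, averaged probe sets, the variance model, array weights, the groups fitted, the replicate block and each array left out.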

Additional observations from a re-analysis of the deposited data

How the results depend on the processing

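Leaving out single arrays moved the counts most; the lone array of a group was then taken to vary like the others. Genes of the set called ranged from 2 to 8 in INM versus hESC, 1 to 4 in SMC versus INM, 4 to 7 in SMC versus hESC and 0 to 5 for the difference of steps. The actin network lists ranged from 36 to 82, 8 to 53 and 42 to 77 calls in the 3 comparisons, and all genes from 2939 to 7520, 1134 to 6143 and 3803 to 9200. Of the other alternatives, quantile normalization gave 2 genes of the set in SMC versus INM against 1, and fitting only the compared groups gave 2541 of all genes against 3874, with fewer arrays in the fit. The remaining alternatives kept these counts within 1.5 times, the low-signal filter on 15281 genes included.

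Signs turned only where the change on all 6 arrays was not called: TPM4 in SMC versus INM was 0.06 with probe sets averaged, 0.12 for its second probe set (chosen after seeing the data), 0.07 without INM replicate 1 and 0.12 without SMC replicate 2; CNN2 was 0.02 without SMC replicate 1; CSRP1 ran from -0.31 without INM replicate 2 to 1.32 without INM replicate 1; VCL in SMC versus hESC was -0.00049 with quantile normalization and ran from -0.02 to 0.05 over the leave-one-out fits; and the step difference of CNN3 ran from -0.37 to 0.15 over them. For TPM4 the step difference was -0.77 with probe sets averaged (adjusted p = 0.0583). The causes were not tested.

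With the replicate number as a block, the set had 6, 1, 6 and 3 calls, as without it. Replicate differences of same-numbered arrays correlated at 0.07, -0.07 and -0.12 between groups over 18417 genes. With 1 pair per group, these values cannot tell whether same-numbered arrays were made together. The block moved all-gene counts to 5713, 3392 and 6429. Array weights gave each INM array 0.46, against 1.31 in hESC and 1.66 in SMC. Signal over background was not measured, and precision is limited by 2 arrays per group.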
